A study of Arabidopsis thaliana with 6 samples.

Results

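Of the 32678 genes in the deposited read count table, 9 were examined by locus identifier: 7 calmodulin-like genes described as touch-induced, TCH2 (AT5G37770), TCH3 (AT2G41100), CML23 (AT1G66400), CML37 (AT5G42380), CML38 (AT1G76650), CML39 (AT1G76640) and CML42 (AT4G20780), and 2 calmodulin genes set against them, CAM1 (AT5G37780) and CAM2 (AT2G41110). All 9 were in the table. RefSeq lists CML39 as a synonym of both AT1G76640 and CML37, and the name is used here for AT1G76640. They were chosen by the measured counts of the comparison described here, as genes that differ between its groups and relatives to set beside them. They were compared between 3 libraries of the Arabidopsis thaliana double mutant papl1-1 papl2, also named cog1-6 cdf4, and 3 libraries of the wild type, accession Col-0, which is the standard laboratory strain. Both mutated genes encode Dof transcription factors, a plant class with a single zinc finger. All 6 libraries came from root meristems dissected by hand from seedlings of 5 days, raised at 23 °C in long days on agar with 0.5 x MS salts and 1% sucrose. The labels do not say how many roots went into a library, whether replicates were separate cultures, or what kind of mutation each allele is, so the tests measure the spread between these libraries, which may be technical. Per the labels, the 3 replicates of each genotype were those of best RNA quality. Because the choice used this comparison, the values of the 9 genes in it are given as a description.

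Calmodulin is a small protein that binds calcium ions through loops called EF hands and then binds and switches other proteins. Plants carry, beside a few nearly invariant calmodulins, a large family of calmodulin-like (CML) proteins. TCH genes were found in Arabidopsis as transcripts that accumulate within minutes when a plant is touched, sprayed or wounded, stimuli that raise cytosolic calcium. The contrast of touch-induced genes with constitutive calmodulins is not one the annotation fully draws: RefSeq lists CAM1 as TOUCH 1, with expression induced by touch, wounding and darkness, and describes CAM2 as touch-inducible. CAM1 and CAM2 are therefore called canonical calmodulins here.

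The 9 members were compared as sequences in TAIR10.1, the RefSeq release of the Arabidopsis genome. The submitters' processing notes name TAIR10, and the count table itself holds no coordinates. CAM1 and CAM2 each encode 149 residues with 4 matches to the EF-hand loop pattern PS00018. TCH3 encodes 324 residues with 6 such loops, TCH2 161 residues and CML23 157 residues with 4 loops each. CML37, CML38, CML39 and CML42 have 3 loops each and encode 185, 177, 159 and 191 residues in that order. The TCH2 and CML23 proteins are 76.4% identical, those of CML38 and CML39 79.9%, and CML37 is 52.9% identical to CML38. TCH3 is closer to the canonical calmodulins, at 63.8% identity with CAM2, than to TCH2, at 36.1%. CAM1 and CAM2 are 96.6% identical. The CAM1 protein is identical to that of CAM4, and the CAM2 protein to those of CAM3 and CAM5.

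Several members lie side by side on one strand, with 0 annotated genes between them. TCH3 (chr2:17137037-17139700, plus strand) stands 482 bases from CAM2 (chr2:17140183-17141431). TCH2 (chr5:14997514-14999619, minus strand) stands 4846 bases from CAM1 (chr5:15004466-15006267). CML23 (chr1:24770419-24771393, minus strand) stands 2719 bases from CAM4 (chr1:24774113-24775984), and CML39 (chr1:28765254-28765866) 883 bases from CML38 (chr1:28766750-28768138). CML37 (chr5:16942447-16943820) and CML42 (chr4:11133095-11134075), both on the minus strand, have no other member beside them.

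The 250 bases before each annotated gene start were searched for CGCG, which reads the same on both strands and is the core of the element bound by CAMTA factors, transcription factors that themselves bind calmodulin. It was present in the windows of 3 of the 9 members, TCH2, CML23 and CAM2, and in that of CAM3, 2 times in each, while 10.1% of 27443 promoter windows of nuclear protein-coding genes held it at least once and 1.72% held it 2 times or more. The windows of these 4 genes are printed, as a pair of related touch-induced genes and a pair of canonical calmodulins with the same protein, each read 5′ to 3′ on the gene's own strand with CGCG in capitals.
TCH2: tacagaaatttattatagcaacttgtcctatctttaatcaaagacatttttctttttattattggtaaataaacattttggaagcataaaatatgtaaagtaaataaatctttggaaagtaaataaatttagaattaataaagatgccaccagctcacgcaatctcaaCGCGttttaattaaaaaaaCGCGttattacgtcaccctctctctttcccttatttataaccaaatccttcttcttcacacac
CML23: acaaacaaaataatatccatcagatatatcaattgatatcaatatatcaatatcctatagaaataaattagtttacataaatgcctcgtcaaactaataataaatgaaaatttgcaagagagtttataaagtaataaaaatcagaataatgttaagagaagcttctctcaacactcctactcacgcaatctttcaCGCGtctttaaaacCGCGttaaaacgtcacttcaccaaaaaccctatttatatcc
CAM2: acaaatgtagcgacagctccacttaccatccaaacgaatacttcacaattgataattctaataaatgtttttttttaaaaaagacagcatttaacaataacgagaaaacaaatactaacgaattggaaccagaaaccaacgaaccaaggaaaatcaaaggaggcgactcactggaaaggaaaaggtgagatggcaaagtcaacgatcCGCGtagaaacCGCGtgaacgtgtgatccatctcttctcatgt
CAM3: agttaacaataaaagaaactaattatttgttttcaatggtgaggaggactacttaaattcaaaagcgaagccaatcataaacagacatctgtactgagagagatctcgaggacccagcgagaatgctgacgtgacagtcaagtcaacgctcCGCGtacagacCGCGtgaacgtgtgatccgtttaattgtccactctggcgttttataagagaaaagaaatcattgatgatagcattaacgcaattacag
The windows are chr5:14999620-14999869 (minus strand) for TCH2, chr1:24771394-24771643 (minus) for CML23, chr2:17139933-17140182 (plus) for CAM2 and chr3:21036167-21036416 (minus) for CAM3. The motifs begin 82 and 63 bases before the start of TCH2, 55 and 41 bases before that of CML23, 43 and 32 bases before that of CAM2, and 99 and 88 bases before that of CAM3, so the step between them is 11 bases in both calmodulin genes. CGCG is not in the windows of TCH3, CML37, CML38, CML39, CML42 or CAM1. A further motif, CGTGT, counted on both strands, occurred 2 times in the CML39 window and 1 time in those of TCH3, CAM2 and CAM3. It was not in the windows of the other members. Over all windows, 22.1% held CGTGT and 4.69% held it 2 times or more. Binding by CAMTA factors was not tested. The TCH3 window overlaps annotated exons of AT2G41090 and AT2G09220. AAAG, the core bound by Dof factors, was counted on both strands and occurred 1 to 8 times in the windows of the 9 members, with the fewest in TCH3, the most in TCH2, 7 in CML37 and 3 to 5 in the others, against a median of 4 over all windows, of which 98.0% held it.

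Library totals lay between 17849704 and 20914576 counts, and 3 counts, the floor used here, corresponded to 0.143 to 0.168 CPM (the depth-scaled read count, on library sizes adjusted by the trimmed mean of M-values, TMM). This covers counting error only. No pair of libraries of one label agreed within counting error (chi-square of 4.22 to 16.2 per degree of freedom). Replicate 3 labelled papl1 papl2 gave 16.2 against replicate 1 and 9.66 against replicate 2. The other pairs lay between 4.22 and 5.43. Reads were not tagged with molecular identifiers per the labels' protocols, so they are not independent molecules. The mutated loci, identified from general knowledge of these genes and annotated as Dof-type proteins, checked the labels first. The COG1 locus (AT1G29160) had 455, 365 and 295 counts in the libraries labelled papl1 papl2, against 240, 220 and 231 in those labelled wild type. The CDF4 locus (AT2G34140) had 115, 113 and 111 against 69, 92 and 81. At both loci every value under the mutant label was above every value under the wild-type label. The log2 fold change was 0.76 (SE 0.12, edgeR adjusted p 0.0137) at COG1 and 0.57 (SE 0.15, edgeR adjusted p 0.0952) at CDF4. Counts per gene do not tell an intact transcript from a disrupted one, so libraries are named by their labels. Of the 7 meristem markers, 6 had at least 385 counts in every library, while WOX5 had 2 to 19 counts and was under the floor in replicate 1 labelled wild type. SCR, which patterns the ground tissue, was at 65.5 to 69.6 CPM in the libraries labelled papl1 papl2 and 66.9 to 73.0 CPM in those labelled wild type, and the summed level of the 7 meristem markers was 284 to 327 CPM and 289 to 302 CPM. On summed root hair markers, replicates 1 and 2 labelled papl1 papl2 stood above every library labelled wild type, and replicate 3 below. The summed level of 8 such genes was 70.2, 45.4 and 13.6 CPM in replicates 1 to 3 labelled papl1 papl2, against 37.8, 34.3 and 36.4 CPM in those labelled wild type. Most of that sum was RHD2, at 49.5, 30.4 and 10.4 CPM in the libraries labelled papl1 papl2. In those labelled wild type RHD2 was at 29.2, 25.5 and 28.7 CPM. Of these 8 genes, EXPA7, EXPA18 and PRP3 were at 0 in at least 1 library.

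Of the 7 touch-induced genes 5, namely TCH3, CML39, CML38, CML23 and TCH2, had higher counts in every library labelled papl1 papl2 than in any labelled wild type. CML42 and the 2 canonical calmodulins lay in overlapping ranges, and CML37 was near the detection floor. Genes are named as called where the p of edgeR's quasi-likelihood test, adjusted over all 17720 genes tested, was under 0.05. Of the 9 members 8 were tested and 5 were called, all higher, while over all tested genes 2.76% were called, 2.23% higher and 0.525% lower. The groups did not overlap for the same 5 members, against 21.5% of all tested genes and 11.7% in this direction. Since this comparison chose the members, nothing is read from their share. In bulk tissue, fewer cells of a type and less RNA per cell cannot be told apart.

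**Figure D1:**
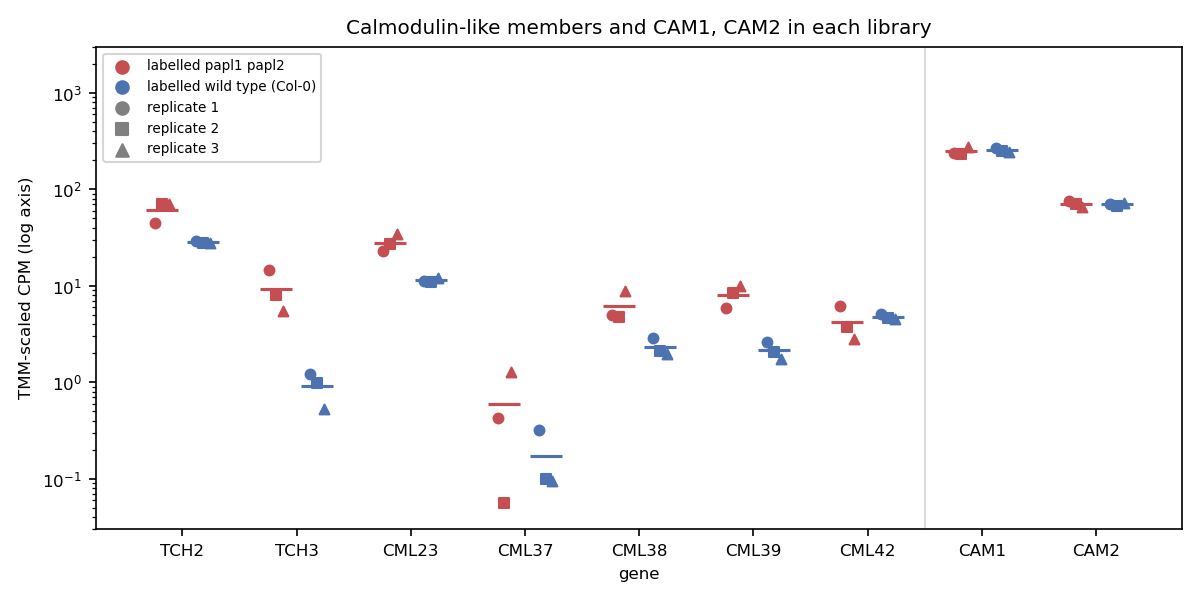
TMM-scaled CPM (log axis) of the 9 members in each library, with bars at the mean of 3 libraries and one symbol per replicate. The points labelled papl1 papl2 lie above all points labelled wild type for TCH2, TCH3, CML23, CML38 and CML39, and overlap them for CML37, CML42, CAM1 and CAM2.

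TCH3 encodes a calmodulin-like protein known to bind the auxin-related kinase PINOID and, per its annotation, to be expressed in growing regions of roots. It had 304, 145 and 99 counts in replicates 1 to 3 labelled papl1 papl2, against 23, 20 and 11 in those labelled wild type. On the CPM scale these were 14.5, 8.04 and 5.53, against 1.21, 0.992 and 0.524. The lowest library labelled papl1 papl2 was thus above the highest labelled wild type, yet within the mutant label the values varied 2.63-fold. The means were 9.37 ± 4.65 CPM and 0.909 ± 0.351 CPM (SD, n = 3 each), a log2 fold change of 3.38 (SE 0.42). Its replicate order was that of the root hair, maturing xylem and endodermal marker sums, whose part in the result was not tested. In replicate 3, TCH3 was 6.08 times and the root hair marker sum 0.375 times the wild-type mean. The annotation places 2 genes on the strand opposite TCH3, whose counts were not analysed here, and the use of strand in counting is not given in the sources used here, so reads from that strand cannot be told apart from those of TCH3.

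CML39, known in Arabidopsis from early seedling establishment, had 124, 151 and 177 counts in the libraries labelled papl1 papl2, against 50, 42 and 37 in those labelled wild type. These were 5.93, 8.37 and 9.89 CPM, against 2.63, 2.08 and 1.76 CPM, with no overlap. The log2 fold change was 1.90 (SE 0.23). CML38, its neighbour, whose protein is known to gather in cytoplasmic granules under low oxygen, had 103, 85 and 158 counts in the libraries labelled papl1 papl2, against 55, 43 and 41 in those labelled wild type. At 4.93, 4.71 and 8.83 CPM, against 2.90, 2.13 and 1.95 CPM, replicate 3 labelled papl1 papl2 stood clear of the other two. The log2 fold change of CML38 was 1.40 (SE 0.28), and its call was lost in 4 of the 6 fits that each left out 1 library. Its log2 fold change in those 4 was 1.29 to 1.59. The calls of TCH3, CML23 and CML39 held in all 6. That of TCH2 was lost without replicate 1 labelled wild type, a fit in which 3 of the 7 touch-induced genes were called and TCH2 kept a log2 fold change of 1.15.

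TCH2, also named CML24, and CML23 are close relatives that act in nitric oxide levels and the transition to flowering. TCH2 was at 44.5, 71.0 and 70.0 CPM in the libraries labelled papl1 papl2, against 29.0, 28.1 and 27.7 CPM in those labelled wild type. The libraries labelled wild type agreed closely, with a coefficient of variation of 2.38%, against 24.3% under the mutant label. Its log2 fold change was 1.13 (SE 0.16). CML23 was at 22.9, 26.9 and 34.3 CPM in the libraries labelled papl1 papl2, against 11.1, 10.9 and 12.1 CPM in those labelled wild type, and its log2 fold change was 1.30 (SE 0.14). The pair thus differed between labels by similar amounts, and for both the lowest of the mutant libraries was replicate 1. AT5G37760, a chaperone gene opposite TCH2, had at most 3 counts in any library.

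CML37, known for a part in jasmonate-linked defence, had 9, 1 and 23 counts in the libraries labelled papl1 papl2, against 6, 2 and 2 in those labelled wild type. It fell under the filter on low counts and was not tested. Of its 6 libraries 3 held no more than 2 counts, and a difference was not detectable at this depth. CML42, a calcium sensor of trichome branching, was at 6.12, 3.71 and 2.79 CPM in the libraries labelled papl1 papl2, around the 5.16, 4.61 and 4.57 CPM of those labelled wild type. Its log2 fold change of -0.17 (SE 0.26) did not pass, and it was 0.05 without replicate 3 labelled papl1 papl2. Its order over the mutant replicates was that of the root hair, maturing xylem and endodermal marker sums.

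**Figure D2:**
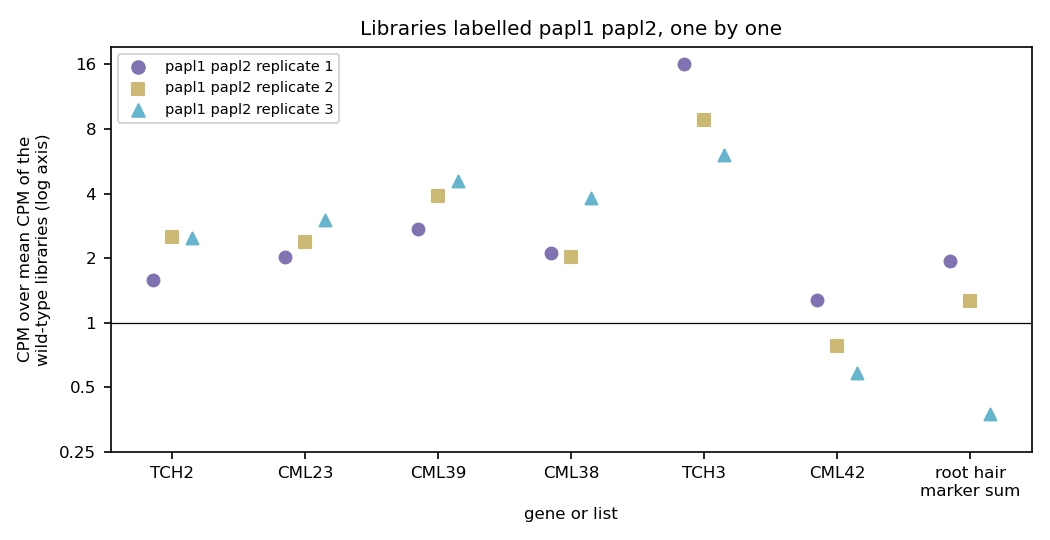
CPM of 6 members and of the summed root hair markers in each library labelled papl1 papl2, divided by the mean of the 3 libraries labelled wild type (log axis, line at 1). Replicate 1 is the highest for TCH3, CML42 and the root hair sum, and the lowest for TCH2, CML23 and CML39.

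The mutant replicates thus did not rank alike over the members. In replicate 1, TCH3 was 16.0 times the wild-type mean, while TCH2 was 1.58 and CML39 2.75 times that mean. In replicate 3, TCH3 was 6.08 times, TCH2 2.48 times and CML39 4.58 times the wild-type mean. The summed level of the 7 touch-induced genes was 99.4, 123 and 133 CPM in the libraries labelled papl1 papl2, against 52.3, 48.9 and 48.7 CPM in those labelled wild type, and TCH2 and CML23 carried most of it.

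CAM1 was at 239, 232 and 273 CPM in the libraries labelled papl1 papl2, against 271, 253 and 246 CPM in those labelled wild type. The log2 fold change was -0.05 (SE 0.07), and the groups overlapped. CAM2 was at 75.0, 70.1 and 65.8 CPM in the libraries labelled papl1 papl2, against 70.1, 68.0 and 71.6 CPM in those labelled wild type, with a log2 fold change of 0.01 (SE 0.06) whose sign turned in 2 of the fits without 1 library. Neither was called. Their standard errors are below those of the 6 tested touch-induced genes, and their counts were 1177 to 5175 per library. The annotation places AT2G41120 and AT2G09225 on the strand opposite CAM2. AT2G41120 had at most 2 counts in any library, and counts of AT2G09225 were not analysed here. Reads from that strand cannot be told apart from those of CAM2.

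Set against the gene beside it, each of the 3 touch-induced genes next to a canonical calmodulin stood higher under the mutant label. TCH3 counts were 19.4%, 11.5% and 8.41% of CAM2 counts in the libraries labelled papl1 papl2, against 1.73%, 1.46% and 0.731% in those labelled wild type. TCH2 counts were 18.6%, 30.6% and 25.7% of those of CAM1, against 10.7%, 11.1% and 11.2%. CML23 counts were 9.71%, 11.6% and 12.5% of those of CAM4, against 4.11%, 4.18% and 4.90%. In none of the 3 pairs did the labels overlap. These ratios need no scaling between libraries, and they restate the same comparison. On its other side TCH3 adjoins AT2G41090, another EF-hand gene, at 1.84 ± 0.448 CPM in the libraries labelled papl1 papl2 and 2.50 ± 0.487 CPM in those labelled wild type (SD, n = 3 each), which was not called (log2 fold change -0.44, SE 0.26, edgeR adjusted p 0.456).

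**Figure D3:**
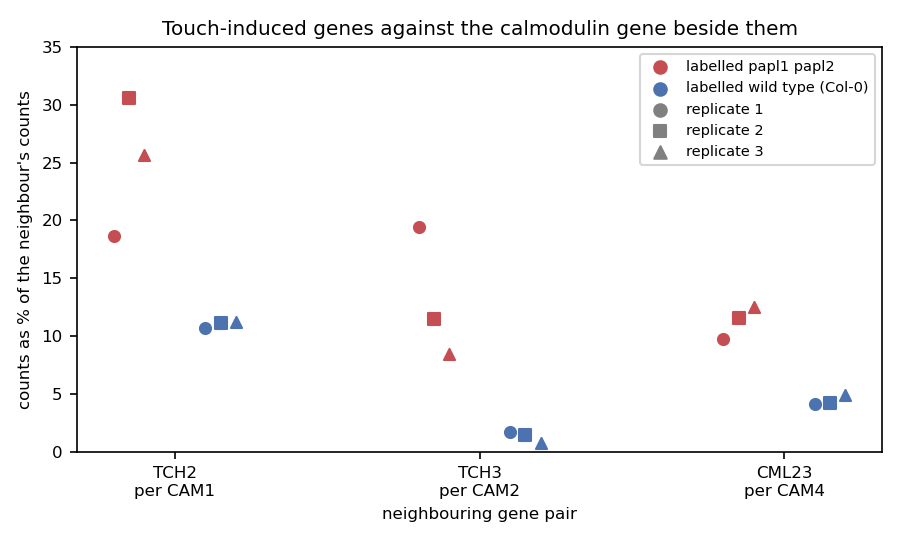
Counts of a touch-induced gene as a percentage of those of the canonical calmodulin gene beside it, in each library. In all 3 pairs the points labelled papl1 papl2 lie above those labelled wild type, by the widest ratio for TCH3 per CAM2.

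Levels were compared between genes as CPM per kilobase of annotated exon, a scale that understates a gene where the RefSeq model holds longer exons than the cells use. In the libraries labelled papl1 papl2 the order of means was TCH2 (30.8), CML23 (28.8), CML39 (13.2), CML38 (6.20), CML42 (4.29), TCH3 (3.68) and CML37 (0.430). Within it the ranges of TCH2 and CML23 overlapped, as did those of CML38, CML42 and TCH3. In the libraries labelled wild type the order was TCH2 (14.1), CML23 (11.7), CML42 (4.88), CML39 (3.52), CML38 (2.34), TCH3 (0.357) and CML37 (0.124), where CML39 and CML38 overlapped. The canonical members were far above on this scale, CAM1 at 218 and 226 and CAM2 at 76.3 and 75.9 CPM per kilobase under the mutant and the wild-type label.

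The remaining canonical calmodulins gave the wider view of that class. None of CAM1 to CAM7 was called in the edgeR quasi-likelihood test or in the DESeq2 Wald test, and 1 of the 7 had an unadjusted p under 0.05, as had 15.9% of all tested genes. The log2 fold changes of the 7 lay between -0.14 and 0.07, with a median of -0.07, where the median over all tested genes was 0.00. CAM7 was the one with no overlap between labels, at 374, 383 and 376 CPM in the libraries labelled papl1 papl2, against 434, 414 and 398 CPM in those labelled wild type (log2 fold change -0.14, SE 0.05, edgeR adjusted p 0.242). For CAM3, CAM4, CAM5 and CAM6 the log2 fold changes were 0.07, -0.07, -0.08 and -0.07, each with an SE of 0.06 or 0.07. Although these genes encode the same or nearly the same protein, none of their exonic stretches of 50 bases recurred elsewhere in the genome, and for TCH3 0.37% did.

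Of the 50 CML genes listed, 28 had enough counts to be tested and 9 were in no library. Of the 28, 9 were called, all higher under the mutant label, but 5 of these are members, chosen by this comparison. Outside the members 22 were tested and 4 called higher, where 2.23% of all tested genes were called higher. The CML list was chosen with earlier results of these data known, so nothing is read from this share. CAM9 (AT3G51920), a divergent calmodulin linked to stress and abscisic acid responses, rose to 18.3, 18.5 and 17.0 CPM in the libraries labelled papl1 papl2, against 11.3, 12.0 and 9.86 CPM in those labelled wild type (log2 fold change 0.70, SE 0.10, edgeR adjusted p 0.00830). AT3G25600, annotated as a calcium-binding EF-hand protein, rose to 10.1, 11.2 and 9.89 CPM, against 4.32, 4.17 and 4.10 CPM (log2 fold change 1.31, SE 0.12, edgeR adjusted p 0.00126). In both genes the replicates of a label lay close together. MSS3 (AT2G43290), a calmodulin-like protein, rose to 36.9 ± 5.29 CPM, against 24.8 ± 1.54 CPM (SD, n = 3 each; log2 fold change 0.57, SE 0.11, edgeR adjusted p 0.0255). AT3G59440 had 18, 28 and 36 counts in the libraries labelled papl1 papl2, against 6, 6 and 7 in those labelled wild type, and entered the test through the higher libraries alone. Its groups therefore could not overlap, and its place among the 4 is a description only. AT3G24110, with 13, 12 and 14 counts against 9, 8 and 7, entered in the same way and was not called (edgeR adjusted p 0.334). The 22 tested CML genes outside the members had a median log2 fold change of 0.14. The most abundant of them, AT1G12310, was at 148 ± 3.55 CPM and 149 ± 3.67 CPM under the mutant and the wild-type label (SD, n = 3 each). Without replicate 1 labelled wild type, 5 of the CML genes were called in place of 9.

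**Figure D4:**
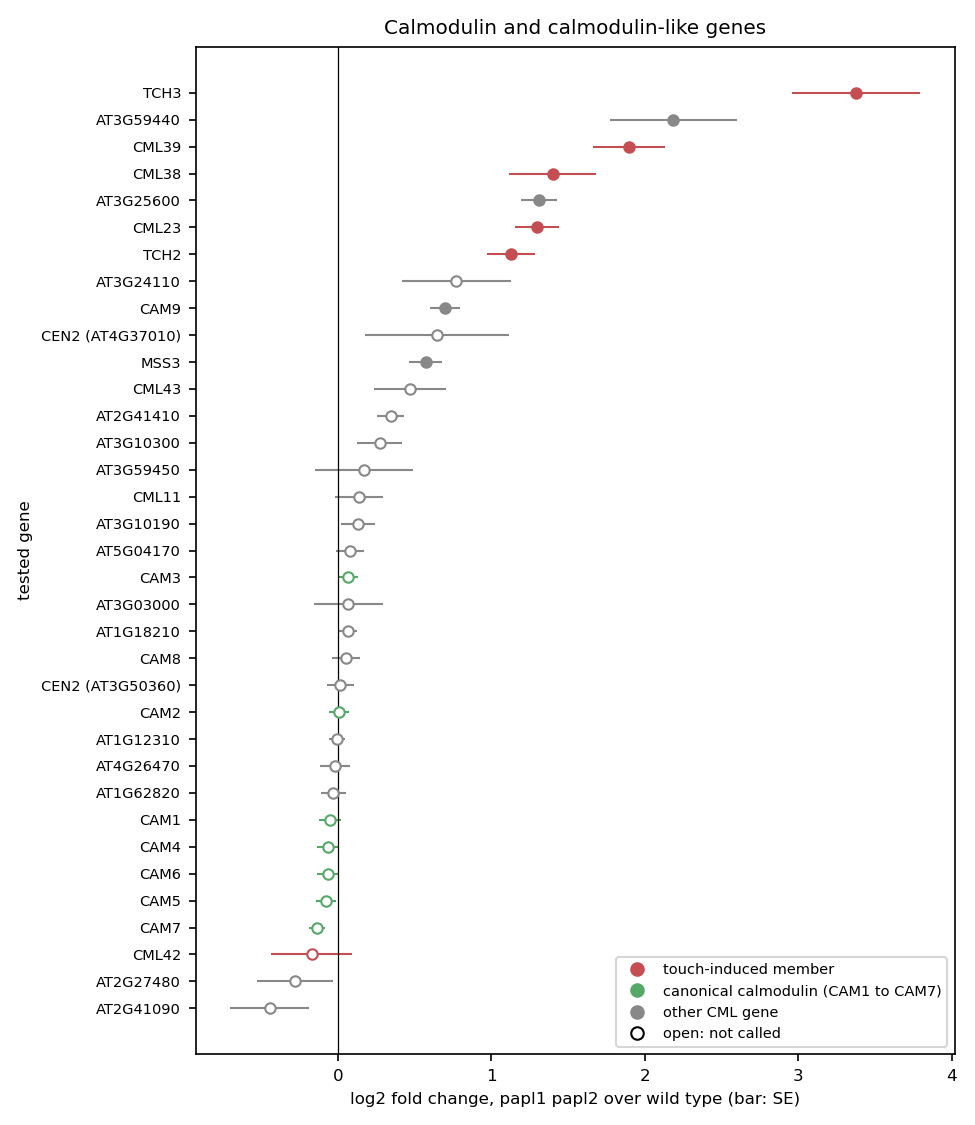
Log2 fold changes (bars, SE) of the 35 tested calmodulin and CML genes, papl1 papl2 over wild type, with filled points for genes called by edgeR. The 9 called genes all lie to the right of 0, and CAM1 to CAM7 lie between -0.14 and 0.07.

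Other parts of calcium signalling were described from lists of 74 genes, of which 59 were tested and 4 called, all higher under the mutant label. Over all tested genes 2.76% were called, and 81.0% of those calls were higher. Because these lists were chosen with earlier results of these data known, nothing is read from their share or direction. Among the 4, CBP60G entered the test through the libraries where it is high. TCH4 (AT5G57560), a xyloglucan-modifying wall enzyme found in the same touch screen as TCH2 and TCH3, rose to 4.31, 6.43 and 10.6 CPM in the libraries labelled papl1 papl2, against 1.21, 1.98 and 1.10 CPM in those labelled wild type. On the log2 scale this was a difference of 2.30 (SE 0.36, edgeR adjusted p 0.0137). PBP1, an EF-hand protein that binds PINOID as TCH3 does, rose to 4.02, 3.10 and 2.51 CPM, against 1.58, 0.744 and 0.524 CPM (log2 fold change 1.77, SE 0.38, edgeR adjusted p 0.0422). PINOID itself (PID), at 8.56, 8.48 and 5.08 CPM, against 4.69, 3.92 and 3.72 CPM, did not pass (log2 fold change 0.85, SE 0.22, edgeR adjusted p 0.0815). The EF-hand gene AT2G46600 of the same list had overlapping groups (log2 fold change -0.08, edgeR adjusted p 0.934).

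SR1 (AT2G22300), also named CAMTA3, was called, at 36.2 ± 3.21 CPM in the libraries labelled papl1 papl2 and 26.6 ± 2.53 CPM in those labelled wild type (SD, n = 3 each; log2 fold change 0.44, SE 0.09, edgeR adjusted p 0.0390). The other 5 CAMTA genes were not called, although 4 of the 6 had an unadjusted p under 0.05. Among those 4, CAMTA1 (AT5G09410) had lower values without overlap (log2 fold change -0.15, SE 0.06). It was at 69.0 ± 2.22 CPM in the libraries labelled papl1 papl2 and 76.6 ± 4.02 CPM in those labelled wild type (SD, n = 3 each). The other uncalled genes of the 4, CAMTA5 (AT4G16150) and CAMTA6 (AT3G16940), had higher values without overlap. Their log2 fold changes were 0.15 (SE 0.06) and 0.30 (SE 0.10). Of the 6 CAMTA genes, 5 had a log2 fold change above 0. CBP60G, a calmodulin-binding factor of salicylic acid defence, had 23, 27 and 26 counts in the libraries labelled papl1 papl2, against 8, 3 and 0 in those labelled wild type. Because only the libraries labelled papl1 papl2 brought it into the test, its call is a description only. The other 2 calmodulin-binding targets listed, GAD and GAD2, were not called. Calcium-dependent protein kinases had 0 of 24 tested genes called in the edgeR quasi-likelihood test, CBL calcium sensors 0 of 7, and calcium channels and pumps 0 of 15. At an unadjusted p under 0.05 these numbers were 4, 1 and 3, where 15.9% of all tested genes passed, and in the DESeq2 Wald test they were 0, 0 and 1. Their median log2 fold changes were 0.05, -0.10 and 0.06. Of the 59 genes, 9 were called without replicate 3 labelled papl1 papl2, and 0 in edgeR's test without replicate 3 labelled wild type. With all libraries, 16 of the 59 had an unadjusted p under 0.05, against 15.9% of all tested genes, and the DESeq2 Wald test called 6.

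Markers of other tissues gave the setting of these values. Over all 17720 tested genes 2.76% were called, 15.9% had an unadjusted p under 0.05, and the DESeq2 Wald test called 744. In the edgeR quasi-likelihood test 0 of 4 root cap, 0 of 7 root hair, 0 of 4 maturing xylem and 0 of 1 shoot markers tested were called, with 2, 1, 0 and 0 at an unadjusted p under 0.05 and 0, 1, 0 and 0 called in the DESeq2 Wald test. The log2 fold changes of the 7 tested root hair markers were all above 0, with a median of 0.61 and a range of 0.12 to 2.13, and those of the 4 root cap markers all below 0, with a median of -0.20. The endodermal list had 1 tested gene, MYB36, which was called higher. The summed level of the 6 genes listed was 9.33, 8.04 and 6.42 CPM in the libraries labelled papl1 papl2, against 3.58, 4.31 and 2.95 CPM in those labelled wild type. Most of that sum was MYB36, at 7.56, 6.43 and 6.03 CPM in the libraries labelled papl1 papl2, against 3.21, 3.27 and 2.57 CPM in those labelled wild type. The other 5 genes, CASP1 to CASP5, had at most 12 counts in any library, and 4 of the 6 were at 0 in at least 1 library. MYB36 did not overlap between labels, like the 5 called members, and its part in their values was not tested. The sums overlapped between labels for the 4 xylem markers, at 9.83 to 19.4 CPM and 11.9 to 14.3 CPM, for the 4 root cap markers, at 59.2 to 77.1 CPM and 74.7 to 80.1 CPM, and for the 3 shoot markers, at 4.02 to 4.53 CPM and 3.00 to 5.27 CPM.

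Genes of like pattern were sought by Pearson correlation, over the 6 libraries, with the mean standardised log2 CPM of the 6 tested touch-induced genes. Among 6291 other genes with a symbol and at least 5 CPM on average, 69 had a correlation above 0.95. The 5 highest were ABCG1, an ABC transporter (0.998), TET8, a tetraspanin (0.996), BAM1, a receptor kinase (0.995), LHCA4, a light-harvesting protein (0.994), and CZF1, a CCCH zinc finger protein (0.994). The mean contains the 6 members themselves, chosen on the same labels, and their own correlations with it are not given as a result. The 6 points fall into the 2 labels, so a gene that differs between labels with little spread ranks high. ABCG1 was at 23.6, 23.0 and 23.7 CPM in the libraries labelled papl1 papl2, against 19.0, 17.6 and 17.3 CPM in those labelled wild type. TET8 was at 11.8, 11.8 and 11.1 CPM, against 4.95, 4.46 and 4.19 CPM.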

How the data were processed

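RNA was sequenced from 6 libraries of poly-A selected RNA. The authors deposited unnormalised read counts for each gene, per the file headers and the whole-number values. The submitters' processing notes name TopHat2, HTSeq, DESeq, DESeq2 and the build TAIR10, with no roles or versions. The strand setting is not given in the sources used here. Columns were matched to samples by the genotype and number in the titles, and 0 columns were left over. The tests used edgeR 4.0.16 in R 4.3.3, with filterByExpr (minimum count 10, minimum total 15), TMM scaling, and the quasi-likelihood F test (glmQLFit, glmQLFTest) with genotype as the only term. Benjamini-Hochberg adjustment ran over 17720 tested genes. Standard errors are the absolute log2 fold change over the square root of F. The script was tested on simulated data. DESeq2 1.42.0 was an alternative. Symbols, exons and sequences came from RefSeq TAIR10.1, to which 31912 of 32678 identifiers matched. Proteins were the translations with the lowest RefSeq number of each gene, aligned globally, with identity over aligned residues. Correlations used log2(CPM + 0.1). Genes named were the members, CAM1 to CAM7, the neighbours of members, TCH4, the PINOID list and called genes of the other lists. AT2G41090, AT1G12310, CAMTA1, CAMTA5, CAMTA6 and the markers were named after their values were seen. Members and lists were chosen with earlier results of these data known. Same-numbered libraries share only a number, as given among the dependences on processing.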

Additional observations from a re-analysis of the deposited data

How the results depend on the processing

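The number of genes called over the whole table was 489. It was 744 with the DESeq2 Wald test, 140 under the stricter threshold of 0.01 and 259 with the replicate block. In the fits without 1 library it was 144 to 1164, the highest without replicate 3 labelled papl1 papl2. The share called higher was 81.0%, against 74.1% with DESeq2, 87.6% with the replicate block, 90.7% at 0.01 and 78.1% to 92.3% without 1 library. Of the touch-induced genes 5 were called, against 3 to 5 without 1 library, and 4 with the replicate block, where CML38 was lost. Of the CML genes 9 were called, against 5 to 10 without 1 library. For the other calcium signalling lists the number was 4, against 1 among genes averaging 5 CPM or more, 0 under the stricter threshold, 2 with the replicate block and 0 to 9 without 1 library. None of CAM1 to CAM7 was called in any of the 13 alternatives. Log2 fold changes changed sign for CML42, to 0.0512 without mutant replicate 3 (range -0.55 to 0.0512 without 1 library), and for CAM2, to -0.02 without wild-type replicate 2 and -0.0414 without mutant replicate 1 (range -0.0414 to 0.0509). For TCH3 they were 2.90 to 3.65. Some of these fits hold fewer genes or libraries by construction, and otherwise the cause was not tested. Deviations of same-numbered libraries were not positively related, with correlations of -0.01, -0.06 and -0.11 over genes. Low counts limit CML37 and the wild-type values of TCH3.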
